A study of Mus musculus with 7 samples.

Results

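Lymphatic and blood vessels are lined by endothelial cells that share most of their genes and differ in a small set of markers, and 10 of these markers are described here out of 19938 genes measured. They were chosen by gene symbol. The lymphatic markers were Prox1, Lyve1, Pdpn, Reln, Mmrn1 and Nr2f2 (6 genes), and the blood vascular markers were Plvap, Emcn, Vwf and Nos3 (4 genes). Each had 1 probe set on the single-colour Affymetrix Mouse Gene 1.0 ST arrays used. The 7 arrays held 1 sample of MDEC (mouse dermal endothelial cells), 4 PECAM1+ clones of the pigmented mouse melanoma line B16F10 (A2, A3, A4 and A5) and 2 PECAM1− B16F10 samples (the parental line and clone A1). The PECAM1 protein (CD31) joins endothelial cells to each other and also sits on blood cells. The study set melanoma clones that carry it against those that do not, with MDEC as the endothelial sample.

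The labels named no genotype change, drug or time point for any sample. All B16F10 samples were grown in DMEM with serum and MDEC in DMEM with an endothelial supplement, so medium and cell type cannot be told apart between them. The labels did not say how MDEC were isolated, from how many animals, or whether blood or lymphatic vessels were their source. The PECAM1− group joined an uncloned line with 1 clone. Separate cultures were not named in the labels, so the p-values reflect the spread among these arrays alone, and that spread may be technical. Over all genes (not independent replicates), the correlation of clone A1 with the remaining B16F10 arrays was 0.967 to 0.970, and theirs with each other 0.990 to 0.997. Array medians lay between 6.12 and 6.18 log2 units. No detection calls were used, so a low value could not be separated from background, and levels of different probe sets are not compared.

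As background, lymphatic fate in mice begins in venous endothelium, where the transcription factors Sox18 and Nr2f2 act before Prox1, and Prox1 is then needed to start and to keep lymphatic identity. Lymphatic cells carry the VEGF-C receptor Flt4 and the surface proteins Lyve1 and Pdpn. Blood capillaries and veins carry the sialomucin endomucin (Emcn), and Plvap forms the diaphragms of caveolae and fenestrae. No marker is unique to 1 vessel type, and several are also made by other cells, such as Lyve1 and Stab1 by macrophages, Mmrn1 and Vwf by platelets and megakaryocytes, and Pdpn by fibroblasts and keratinocytes.

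The MDEC array held markers of both vessel types far above the melanoma arrays, while Prox1 and Vwf were no higher than in melanoma cells. With 1 MDEC array there was no test. A rule of size was used in its place, which asked for at least a 4-fold difference (2 log2 units) from B16F10, taken as the average of its PECAM1+ and PECAM1− group means, and for a value outside the range of the 6 B16F10 arrays. By that rule 6 of the 10 markers were higher in MDEC (Lyve1, Mmrn1, Pdpn, Emcn, Nos3 and Plvap) and 0 were lower. Over all genes, 543 (2.72%) were higher by the same rule and 400 (2.01%) lower. The higher markers were 3 of the 6 lymphatic and 3 of the 4 blood vascular ones. The median difference was 1.33 log2 units for the lymphatic markers and 4.05 for the blood vascular markers, against 0.00026 over all genes. The lymphatic median falls between Reln (0.26) and Pdpn (2.40), at a level no marker had. With 6 and 4 genes, the medians do not rank the classes. In a bulk sample, fewer cells carrying a transcript and less of it per cell cannot be told apart, so these values do not show whether 1 cell held both kinds of marker.

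Among the lymphatic surface and secreted markers, Lyve1 and Mmrn1 stood far above B16F10 in MDEC. Lyve1 (probe set 10566934), a hyaluronan receptor, was at 12.16 log2 units in MDEC, against 5.29, 5.30, 5.29 and 5.24 in PECAM1+ clones A2 to A5 and 5.23 and 4.95 in the PECAM1− parental line and clone A1. MDEC lay 6.97 log2 units above B16F10, a 125-fold ratio of the deposited values. The B16F10 values of Lyve1, Mmrn1 and Emcn lay below every array's median and were not shown to be above background, so their folds have no known upper bound and their differences are not ranked. The 6 B16F10 arrays spanned only 0.35 log2 units. Mmrn1 (probe set 10538706), which encodes the secreted matrix protein multimerin 1, was at 8.43 in MDEC, against 4.19, 4.19, 4.13 and 4.03 in the PECAM1+ clones and 4.19 and 4.10 in parental cells and clone A1. That is a difference of 4.29 log2 units, or 19.6-fold.

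Pdpn (probe set 10518147), the mucin-type glycoprotein podoplanin that binds the platelet receptor Clec1b, was at 10.76 log2 units in MDEC. It was at 9.11, 8.05, 8.84 and 8.49 in PECAM1+ clones A2 to A5, and at 7.71 in parental cells and 8.48 in clone A1. The MDEC array was again the highest, 2.40 log2 units or 5.27-fold above B16F10 and 1.65 above clone A2, the nearest array. The B16F10 arrays themselves spread over 1.40 log2 units. Reln (probe set 10528385), which encodes the secreted glycoprotein reelin, was at 5.75 in MDEC, against 5.49, 5.44, 5.49 and 5.49 in the PECAM1+ clones and 5.49 in each PECAM1− sample. MDEC was above all 6 arrays by only 0.26 log2 units, as it was above them for 26.5% of all genes, and 5 of the 6 B16F10 arrays held 1 identical deposited value, so the spread of Reln cannot be judged.

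The transcription factor genes Prox1 and Nr2f2 were not higher in MDEC, whereas Sox18 and Tbx1, described with the wider lists, were. Foxc2 and Gata2 of the same list, 0.58 and 1.61 log2 units above B16F10, stayed under the rule of size. Prox1 (probe set 10361023), a homeobox factor, was at 5.75 log2 units in MDEC, against 5.93, 6.14, 6.06 and 6.04 in the PECAM1+ clones and 5.91 and 6.34 in parental cells and clone A1. MDEC was thus the lowest of the 7 arrays, 0.34 below B16F10, but its gap of 0.16 to the nearest B16F10 array was smaller than the B16F10 range of 0.44. A value below all 6 B16F10 arrays was found for 26.3% of all genes. Nr2f2 (probe set 10564527), the nuclear receptor COUP-TFII of veins and lymphatics, was at 8.35 in MDEC, against 8.95, 8.70, 8.48 and 8.89 in the PECAM1+ clones and 9.69 and 8.32 in parental cells and clone A1. MDEC lay inside the B16F10 range, between clone A1 and clone A4, and 5 of the 6 B16F10 arrays were above it. All 7 Nr2f2 values lay above every array's median, whereas the Prox1 value of MDEC lay below every array's median. Nr2f2 was thus not low in MDEC, only no higher than in B16F10.

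Of the blood vascular markers, Emcn, Nos3 and Plvap were far higher in MDEC and Vwf was not. Emcn (probe set 10496359) was at 11.10 log2 units in MDEC, against 4.04, 3.99, 4.10 and 4.10 in the PECAM1+ clones and 4.07 and 4.03 in parental cells and clone A1. The difference was 7.05 log2 units, or 132-fold between deposited values, with the limit given for Lyve1. Nos3 (probe set 10520126), the endothelial nitric oxide synthase, was at 10.63 in MDEC, against 6.28, 6.38, 6.24 and 6.70 in the PECAM1+ clones and 6.46 and 6.21 in parental cells and clone A1. The difference was 4.26 log2 units, or 19.2-fold. Plvap (probe set 10579525) was at 9.98 in MDEC, against 6.24, 6.26, 6.26 and 6.28 in the PECAM1+ clones and 6.23 and 5.77 in parental cells and clone A1. The difference was 3.85 log2 units, or 14.4-fold, and clone A1 was the lowest of the 7 arrays. B16F10 values of Nos3 and Plvap were not shown to be above background either, so their folds carry the same limit.

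Vwf (probe set 10541910), the clotting glycoprotein that blood endothelium stores in Weibel-Palade bodies, was at 6.41 log2 units in MDEC. It was at 6.55, 6.63, 6.84 and 7.05 in the PECAM1+ clones and at 6.93 and 6.87 in parental cells and clone A1. MDEC was the lowest of the 7 arrays, by 0.14 from the nearest and by 0.42 from the B16F10 mean, while the B16F10 arrays spanned 0.50. Vwf and Prox1, 1 from each class, were thus the markers at which MDEC lay below every melanoma array. In both cases the gap was smaller than the range of the B16F10 arrays.

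**Figure D1:**
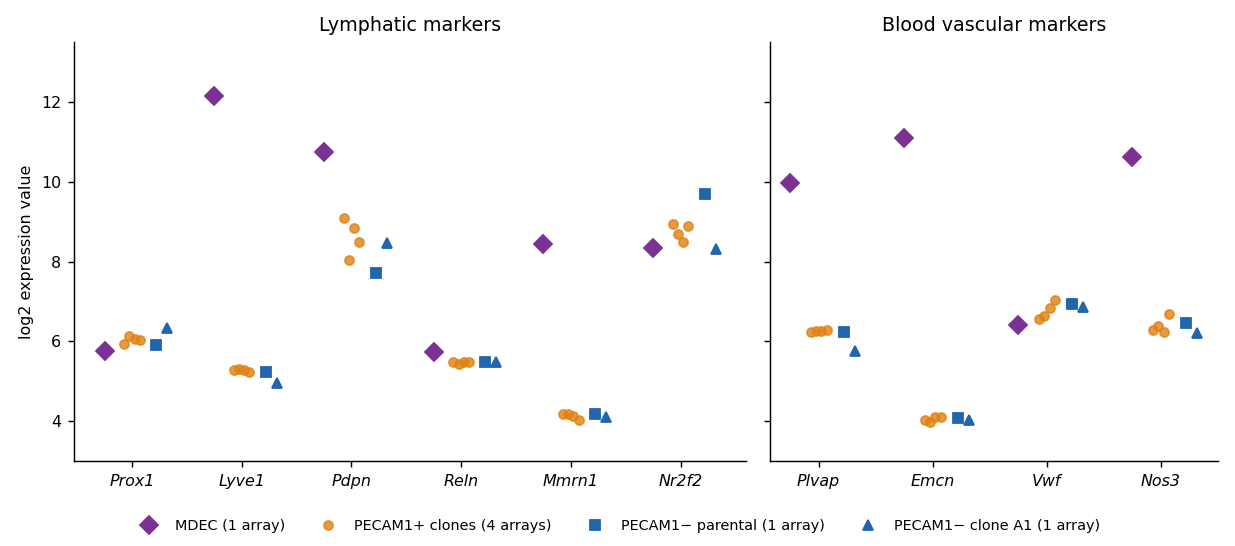
Log2 expression value (vertical axis) of the lymphatic markers (left) and blood vascular markers (right) on each of the 7 arrays, 1 point per array. MDEC (diamonds) stands above all B16F10 points for Lyve1, Pdpn, Mmrn1, Plvap, Emcn and Nos3, 0.26 log2 units above them for Reln, within them for Nr2f2 (8.35), and just below them for Prox1 (5.75) and Vwf (6.41).

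Promoters are shown for Emcn and Mmrn1, the blood vascular and the lymphatic marker with tight low values in B16F10 and high values in MDEC, and for Pdpn and Prox1, which differ from them in level or direction. The RefSeq promoter table for the build GRCm38.p6 held 6 of the 10 markers, and Lyve1, Plvap, Vwf and Nos3 were not matched. Each sequence is the 250 bases before the annotated gene start, 5′ to 3′ on the strand of the gene. Of the pair of starts listed for Prox1, the one farther upstream is given. Capitals mark matches to CAGGAA or its reverse complement TTCCTG, a form of the site of ETS factors, the family of the endothelial regulators Erg and Fli1.
Emcn, chr3:137340828-137341077, + strand: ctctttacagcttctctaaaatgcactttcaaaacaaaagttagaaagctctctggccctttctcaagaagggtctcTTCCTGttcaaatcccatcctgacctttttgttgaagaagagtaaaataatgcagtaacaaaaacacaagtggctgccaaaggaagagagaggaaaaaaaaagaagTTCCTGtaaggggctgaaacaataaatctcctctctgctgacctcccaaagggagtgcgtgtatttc
Mmrn1, chr6:60944067-60944316, + strand: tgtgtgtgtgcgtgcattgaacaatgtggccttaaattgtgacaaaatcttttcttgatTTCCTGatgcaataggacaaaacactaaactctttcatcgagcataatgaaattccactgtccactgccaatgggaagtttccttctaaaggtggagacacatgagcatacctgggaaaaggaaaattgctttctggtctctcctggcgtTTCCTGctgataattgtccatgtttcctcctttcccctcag
Pdpn, chr4:143299565-143299814, - strand: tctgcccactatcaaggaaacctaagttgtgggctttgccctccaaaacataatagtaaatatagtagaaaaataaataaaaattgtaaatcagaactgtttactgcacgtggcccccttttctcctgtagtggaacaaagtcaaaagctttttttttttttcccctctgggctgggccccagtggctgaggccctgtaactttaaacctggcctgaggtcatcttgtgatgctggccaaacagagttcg
Prox1, chr1:190170828-190171077, - strand: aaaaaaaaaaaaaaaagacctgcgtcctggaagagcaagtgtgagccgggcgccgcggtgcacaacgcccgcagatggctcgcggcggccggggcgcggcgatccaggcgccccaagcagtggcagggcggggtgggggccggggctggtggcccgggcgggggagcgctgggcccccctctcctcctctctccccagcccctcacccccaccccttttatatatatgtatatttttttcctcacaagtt
The Emcn and the Mmrn1 window each held 2 matches, both as TTCCTG, and those of Pdpn, Prox1, Reln and Nr2f2 held 0. The motif occurred on either strand in 25.7% of 32851 promoter windows of this length. The nuclear receptor half-site AGGTCA, or TGACCT on the other strand, occurred 2 times in the Emcn window and 1 time in that of Pdpn, against 14.0% of windows with at least 1. The GATA site AGATAA, or TTATCT, was found in none of these windows and in 9.99% of all. In the Emcn window no match of one motif overlapped a match of another, and a match is a description of the sequence only.

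Wider gene lists were then used to set the markers beside the rest of each vessel programme. Genes of lymphatic growth and specification were higher in MDEC by the rule of size for 8 of 17 members and lower for 1. Their median difference was 1.61 log2 units. Tie1 was also counted among the pan-endothelial genes below. The 8 not past the rule were Gata2 (1.61), Ccbe1 (0.73), Foxc2 (0.58), Svep1 (0.20), Vegfd (0.18), Adamts3 (0.17), Nrp2 (−0.31) and Vegfc (−1.08). Flt4, the receptor of VEGF-C, was at 8.91 in MDEC against 5.05 to 5.29 over the 6 B16F10 arrays. Sox18, which acts upstream of Prox1 in mouse lymphatic development, was at 10.62 in MDEC against 6.28 to 6.58 in B16F10. The adrenomedullin gene Adm and its receptor gene Calcrl were 5.15 and 4.21 log2 units higher in MDEC, and Tie1 and Tbx1 were 5.62 and 3.70 higher. Angpt2, a ligand of the Tek receptor that is stored beside Vwf protein in endothelial cells, was at 12.64 in MDEC against 8.09 to 10.57 in B16F10. The 1 member lower by the rule was Itga9, an integrin subunit of lymphatic valves, at 5.53 in MDEC against 6.99 to 8.71 in B16F10.

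The list of lymphatic surface and lumen genes was uneven, with 3 of 10 measured members higher in MDEC, 0 lower and a median difference of 0.17. Klhl4 was at 10.02 in MDEC against 3.90 to 4.12 in B16F10, and the scavenger receptor gene Stab1 at 11.36 against 5.46 to 5.67. Thy1, a surface glycoprotein of mouse lymphatic endothelium and of fibroblasts, was at 10.06 against 5.72 to 6.02. The hyaluronan receptor gene Cd44, a relative of Lyve1, was at 7.41 in MDEC and 1.04 log2 units below B16F10. The decoy chemokine receptor gene Ackr2 (0.32) and Ptx3 (0.33) differed by less than the rule. The chemokine gene Ccl21a was not analysed here.

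Blood endothelial surface genes were higher in MDEC for 8 of 16 measured members and lower for 1, with a median difference of 1.93. Cd34, a sialomucin of capillary endothelium and blood progenitors, was at 12.09 in MDEC against 4.76 to 5.03 in B16F10. The caveolin-1 gene Cav1 was at 11.97 in MDEC against 6.06 to 7.80. The tip-cell gene Esm1, the phosphatase gene Ptprb and the VEGF receptor gene Flt1 were 4.87, 4.89 and 3.66 log2 units higher in MDEC. Mcam, an adhesion gene of both melanoma and endothelium, was the lower member, at 7.30 in MDEC against 11.05 to 11.59 in B16F10. The 7 not past the rule were Icam1 (1.81), Gpihbp1 (0.54), Ackr1 (0.10), Nrp1 (0.05), Cd36 (0.03), Car4 (0.0061) and Rbp7 (−0.04). Arterial genes were higher for 6 of 16 members and lower for 0 (median 0.58). These 6 were Notch1 (2.91), Efnb2 (2.82), Notch4 (2.82), Dll4 (2.66), Jag1 (2.50) and Unc5b (2.39), which are Notch pathway and guidance genes. Of the 10 not past the rule, Cxcl12 (1.06), Bmx (0.67) and Sox17 (0.48) lay above every B16F10 array. The others were Hey1 (0.02), Gja4 (0.02), Sema3g (0.0064), Gja5 (−0.09), Fbln5 (−0.11), Jag2 (−0.22) and Hey2 (−0.26). Of 4 measured venous genes, 1 was higher, Ephb4, the receptor of the Efnb2 protein, at 9.73 in MDEC against 6.69 to 7.69 in B16F10. Aplnr, Ackr1 and Nrp2 differed by 0.06, 0.10 and −0.31. Selp, a venous gene whose protein shares its storage granule with Vwf, was not analysed here.

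Of 19 pan-endothelial genes used to check the endothelial label of MDEC, 14 were higher by the rule and 0 lower (median 4.13). They were led by the VE-cadherin gene Cdh5, at 12.41 in MDEC against 4.86 to 5.08 in B16F10. Pecam1 was among the 14, but MDEC, at 11.72, lay only 0.69 log2 units above the mean of the PECAM1+ clones. Of the 5 not past the rule, Cldn5 (1.77) and Tal1 (1.04) lay above every B16F10 array. Eng (11.73 against 10.95 to 11.75) and Mmrn2 (0.02) lay inside the B16F10 range, and Ets1 (−0.84) lay below it. Melanocyte markers were lower in MDEC for 10 of 12 members (0 higher, median −5.19), with Tyrp1 at 4.95 in MDEC against 12.89 to 13.09 in B16F10. Since Lyve1 and Stab1 also mark macrophages, leukocyte markers were read beside them. Of 14 measured, 2 were higher in MDEC, Lyz2 (lysozyme, 11.76 against 4.78 to 8.03 in B16F10) and Cd68 (a lysosomal protein, 11.18 against 7.52 to 10.07), and the median was 0.10. In all, 6 of the 14 lay above every B16F10 array and 0 below, against 26.5% and 26.3% of all genes. The other 4 of these 6 stayed under the rule. They were Cd14, a lipopolysaccharide co-receptor gene (6.37 against 5.06 to 5.28, a difference of 1.14), C1qa (0.16), Itgam (0.12) and Cd163 (0.09). The remaining 8 lay inside the B16F10 range, among them the leukocyte genes Ptprc, Csf1r and Adgre1, at 4.99, 5.21 and 3.78 in MDEC. The summed log2 level of the 14 markers was 87.8 in MDEC, 77.0 to 79.7 in the PECAM1+ clones and 76.7 to 77.6 in the PECAM1− samples. Such a sum adds log2 values of different probe sets, so single genes such as Lyz2 (a difference of 5.54) and Cd68 (2.75) weigh heavily in it.

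Since Mmrn1 is also a platelet gene and Pdpn also a fibroblast and keratinocyte gene, those lists were read in the same way. Platelet and megakaryocyte markers had 1 of 8 measured members higher in MDEC, the integrin gene Itgb3 (3.04), which endothelium also carries. The platelet genes Gp9 (0.19) and Ppbp (0.29) stayed under the rule, as did Pf4, at 4.57 in MDEC against 3.17 to 3.55 in B16F10. The summed level of the 8 was 47.0 in MDEC, 41.3 to 42.2 in the PECAM1+ clones and 41.2 to 43.6 in the PECAM1− samples. Fibroblast and mural markers had 1 of 15 members higher, Thy1, with the collagen genes Col1a2 at −0.25 and Col3a1 at 0.79 and a summed level of 89.8 in MDEC against 86.8 to 90.0 in the PECAM1+ clones and 85.3 to 89.1 in the PECAM1− samples. Keratinocyte markers had 0 of 12 members past the rule in either direction. Their summed level was 64.5 in MDEC, 62.4 to 63.9 in the PECAM1+ clones and 62.6 to 63.5 in the PECAM1− samples. The largest difference among them was that of Ivl (1.47), at 6.43 in MDEC against 4.74 to 5.01 in B16F10. The part of the Lyz2, Cd68, Cd14 and Thy1 levels in the marker values was not tested.

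**Figure D2:**
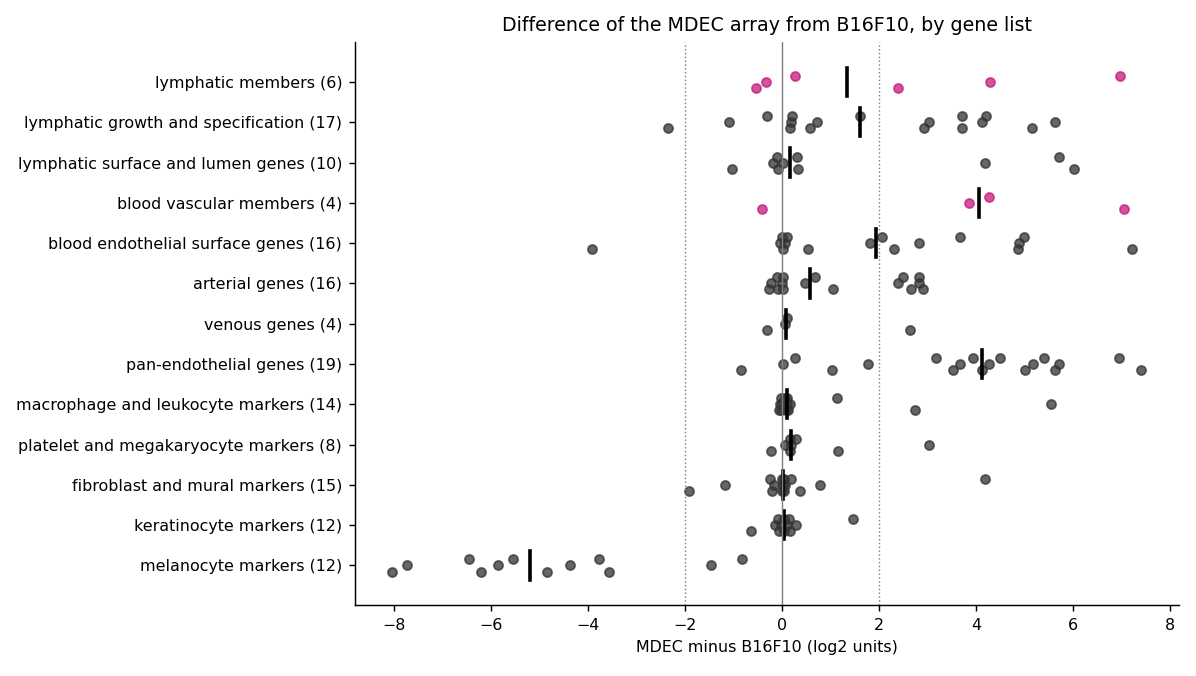
Difference of the MDEC array from B16F10 in log2 units (horizontal axis) for every measured gene of each list, 1 point per gene, with the number measured in brackets, the list median as a black bar and dotted lines at a 4-fold difference. The marker lists described here are in pink. The lymphatic markers split into 3 high and 3 near 0, and 3 of the 4 blood vascular markers lie past the line on the high side.

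Genes with the profile most like each of the 6 high markers were found by the root mean square distance over the 7 arrays between profiles centred on their own mean. The 1 MDEC array sets most of that distance, so likeness here is mainly a similar step between MDEC and B16F10. The nearest profile to Lyve1 was that of Emcn (0.12 log2 units), followed by Cd34 (0.15) and the stem cell glycoprotein gene Prom1 (0.17). The profiles nearest to Emcn were those of Bmp4 (0.11), Cd34 (0.12) and Lyve1 (0.12). Lyve1 and Emcn, a lymphatic and a blood vascular marker, were thus among each other's 3 nearest genes. That follows from steps of similar size (6.97 and 7.05 log2 units) and says nothing about vessel identity. Mmrn1 lay nearest to Ccn3 (0.070), Sox7 (0.073) and Sstr2 (0.079), Plvap to Cnrip1 (0.076), Tmem98 (0.096) and Grap (0.096), and Nos3 to Hoxd8 (0.11), Egfl7 (0.11) and Sstr2 (0.13). Pdpn had no profile as close, with Nid1 at 0.28, Sox4 at 0.34 and Dll4 at 0.34.

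The comparison of PECAM1+ clones with PECAM1− samples asked which genes differed between them. None of the 10 markers was called by limma at an adjusted p of 0.05 (lowest adjusted p = 0.537), where 2 of 19938 genes (0.0100%) were called in all. At an unadjusted p under 0.05, 0 of the 10 were found, against 9.18% of all genes. Of the 10, 5 were higher and 5 lower in the PECAM1+ clones, with a median difference of 0.00091 log2 units, against 0.0011 over all genes. The wider lists gave 0 calls among the 17 genes of lymphatic growth and specification and the 10 lymphatic surface genes. Among the blood endothelial surface genes 1 was called, Cav1 as lower, and among the pan-endothelial genes 1 was called, Pecam1 as higher. The call of Cav1 (−1.62 log2 units, limma adjusted p = 0.0167) was lost without any single PECAM1+ clone (limma adjusted p of 0.129 to 0.254), without clone A1 (0.0933), with array weights (0.205) and with all probe sets (0.0524), at differences of −1.66 to −1.59. Pecam1 was at 11.07, 11.01, 11.03 and 11.00 in PECAM1+ clones A2 to A5, against 5.27 in parental cells and 5.43 in clone A1.

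For 2 of the 10 markers the groups did not overlap, Lyve1 and Plvap, both higher in the PECAM1+ clones. Groups apart with the PECAM1+ clones higher were found for 7.73% of all genes, and with the clones lower for 8.68% of all genes and 0 of the 10 markers. Lyve1 averaged 5.28 ± 0.03 (SD, n = 4) in the PECAM1+ clones and 5.09 ± 0.20 (SD, n = 2) in the PECAM1− samples, a limma difference of 0.19 ± 0.08 (SE, adjusted p = 0.537). Plvap averaged 6.26 ± 0.02 (SD, n = 4) in the PECAM1+ clones and 6.00 ± 0.33 (SD, n = 2) in the PECAM1− samples, a limma difference of 0.26 ± 0.13 (SE, adjusted p = 0.537). Both differences rested on clone A1. Against clone A1 alone, Lyve1 was higher by 0.33 ± 0.04 (SE, limma adjusted p = 0.0107) and Plvap by 0.49 ± 0.03 (SE, limma adjusted p = 0.00417), in a fit that takes the lone sample to vary like the clones. In that fit 1861 genes (9.33%) were called higher and 2228 (11.2%) lower. Against parental cells alone they were higher by 0.05 ± 0.04 and 0.03 ± 0.03 (SE), with limma adjusted p of 0.756 and 0.939, where 2 genes (0.0100%) were called. Clones A2 and A4 held an identical value of Lyve1, and clones A3 and A4 of Plvap, which can make their spread too small. Even the highest B16F10 values, 5.30 for Lyve1 and 6.28 for Plvap, stayed 6.85 and 3.69 log2 units below MDEC.

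Pdpn and Nr2f2 varied most within B16F10, with ranges of 1.40 and 1.37 log2 units over the 6 arrays. Pdpn averaged 8.62 ± 0.46 (SD, n = 4) in the PECAM1+ clones and 8.09 ± 0.54 (SD, n = 2) in the PECAM1− samples, a limma difference of 0.53 ± 0.36 (SE, adjusted p = 0.565). Every clone, A1 included, was above parental cells, and clone A1 lay among the PECAM1+ clones. Nr2f2 averaged 8.76 ± 0.21 (SD, n = 4) in the PECAM1+ clones and lay at 9.69 and 8.32 in the PECAM1− samples, a limma difference of −0.25 ± 0.39 (SE, adjusted p = 0.803). Here parental cells were the highest of the B16F10 arrays and clone A1 the lowest. The difference was −0.93 ± 0.21 (SE) from parental cells alone and 0.43 ± 0.21 from clone A1 alone, with limma adjusted p of 0.221 and 0.248. The PECAM1− samples thus lay on either side of the PECAM1+ clones, and the direction depends on which of them is used.

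The other 6 markers differed between the B16F10 groups by −0.13 to 0.06 log2 units (limma adjusted p from 0.719 to 0.973). Vwf averaged 6.77 ± 0.22 (SD, n = 4) in the PECAM1+ clones and 6.90 ± 0.04 (SD, n = 2) in the PECAM1− samples, and Nos3 averaged 6.40 ± 0.21 in the PECAM1+ clones and 6.34 ± 0.17 in the PECAM1− samples. Prox1 averaged 6.04 ± 0.09 (SD, n = 4) in the PECAM1+ clones and 6.13 ± 0.31 (SD, n = 2) in the PECAM1− samples, with clone A1 highest. It was 0.30 ± 0.09 (SE) lower than in clone A1 alone, which missed the limma threshold (adjusted p = 0.0886). Emcn and Mmrn1, low in every B16F10 array, differed by 0.0089 ± 0.04 and −0.0071 ± 0.06 (SE), and Reln by −0.013 ± 0.03. The Emcn, Mmrn1, Nos3, Nr2f2 and Prox1 differences change sign with the sample left out, and that of Emcn also with the scaling. For order of level, MDEC was above every B16F10 array for 7 of the 10 markers and below every one for 2. Over all genes the shares were 26.5% and 26.3%. Reln, 1 of the 7, was higher by only 0.26 log2 units and was not past the rule of size. The 2 B16F10 groups did not differ past the limma threshold for any of the 10 markers.

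**Figure D3:**
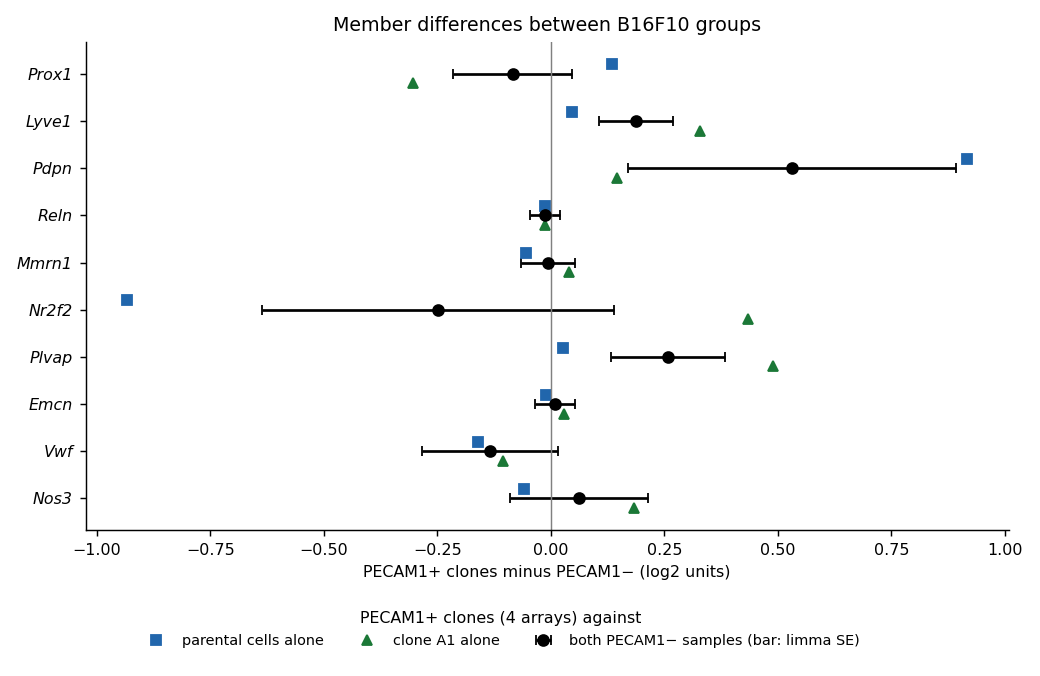
Difference of the PECAM1+ clones from PECAM1− B16F10 in log2 units (horizontal axis) for each of the 10 markers, against both PECAM1− samples (black circles, bars are the limma standard error), against parental cells alone (squares) and against clone A1 alone (triangles). Squares and triangles lie apart for Nr2f2 (−0.93 and 0.43), Plvap (0.03 and 0.49) and Pdpn (0.92 and 0.15).

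**Figure D4:**
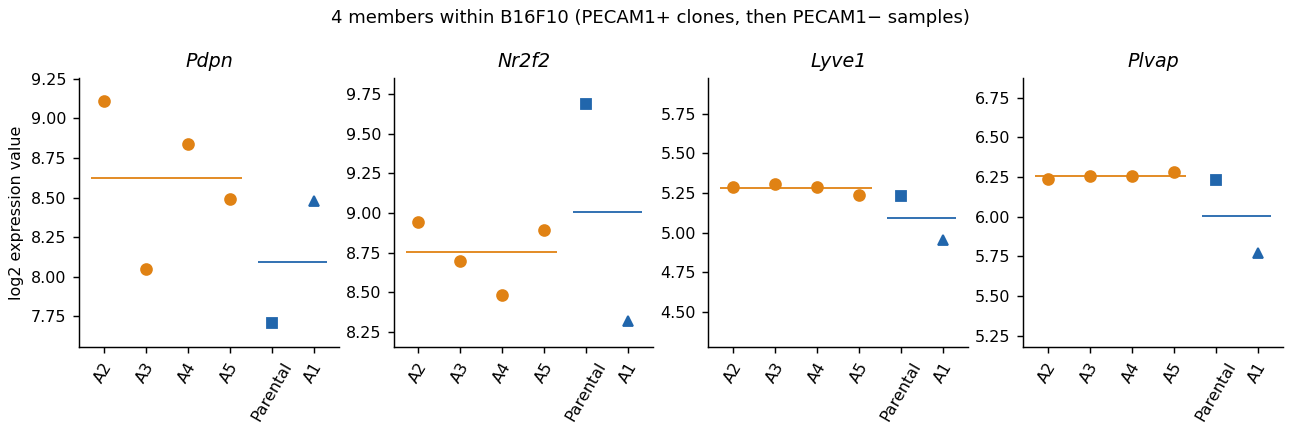
Log2 expression value (vertical axis, the same span in each panel) of Pdpn, Nr2f2, Lyve1 and Plvap in the 4 PECAM1+ clones (circles), parental cells (square) and clone A1 (triangle), with lines at the group means. Pdpn and Nr2f2 spread across arrays of both groups, while Lyve1 and Plvap are flat except in clone A1 (4.95 and 5.77).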

How the data were processed

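Total RNA of 7 samples was hybridised to Affymetrix Mouse Gene 1.0 ST arrays, 1 per sample. The values deposited by the authors are on a log2 scale, as read from their range (1.39 to 13.5), for 35557 probe sets. The submitters' processing notes name Partek, and background correction, summarisation, normalization and genome build were not given in the sources used here. Precision is limited by the number of arrays.

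Probe sets with 1 symbol in the platform annotation were kept (21789, with 1621 of several symbols and 12147 of none left out), and 21698 matched a GRCm38.p6 gene table by Entrez identifier. The brightest probe set stood for each of 999 genes with several. In pairs of B16F10 arrays, 8.40% to 13.1% of genes held an identical value.

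The 4 PECAM1+ and 2 PECAM1− arrays were fitted with limma (version 3.58.1, R 4.3.3, eBayes with trend), two-sided, with Benjamini-Hochberg adjustment over all genes and a threshold of 0.05. The procedure was checked on simulated data that had the spread of the PECAM1+ clones and no sample apart like clone A1. That check does not show which differences the fit could find in these arrays. Differences are PECAM1+ minus PECAM1−, or MDEC minus B16F10.

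Markers and lists were chosen with earlier results of these data known. Genes named were the 10 markers, in each list up to 6 with the largest MDEC difference and 2 with the largest difference between B16F10 groups, and the 3 nearest profiles of each marker past the size rule, without predicted genes. Ptprc, Csf1r, Adgre1 and Cd163 were named after their values were seen. So were Gata2, Foxc2, Vegfc, Vegfd, Ccbe1, Adamts3, Svep1, Cldn5, Tal1, Mmrn2 and Ets1. The same holds for Cxcl12, Bmx, Sox17, Hey1, Hey2, Gja4, Gja5, Sema3g, Jag2, Gpihbp1, Nrp1, Cd36, Car4 and Rbp7. Alternatives were other scalings, filters, variance models and probe set rules, other B16F10 levels and size rules for MDEC, and leaving out each array.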

Additional observations from a re-analysis of the deposited data

Results flagged for a closer look

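In the 4 PECAM1+ clones 32 genes were checked, the 10 markers and the list genes with the largest differences between B16F10 groups. Of these, 7 had 1 clone far from the other clones relative to their whole range. Chance gives about 1 in 20 for values without ties. Apart from Unc5b, each of the 7 held an identical value in more than 1 clone, so that rate does not apply to them. Among the markers this was Reln, at 5.44 log2 units in clone A3 against 1 identical value of 5.49 in the other clones. Among the list genes, clone A2 stood apart for Ephb4 (7.69, the nearest clone at 7.39), Ackr2 (5.97, nearest 6.18) and Epcam (5.03, nearest 5.56). Clone A3 stood apart for Unc5b (7.60, nearest 6.74), and clone A5 for Icam1 (7.30, nearest 7.14) and Tagln (5.28, nearest 5.47). No explanation of these values was tested.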

How the results depend on the processing

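The markers higher in MDEC numbered 3 lymphatic and 3 blood vascular, with 0 lower, under all 12 alternatives run. Over all genes, 943 were past the rule of size, and a 2-fold rule gave 2643. The Pdpn difference, nearest to the rule, ran from 2.21 to 3.05. The MDEC minus B16F10 differences of Prox1, Vwf and Nr2f2 stayed below 0 throughout, with ranges of −0.45 to −0.16, −0.52 to −0.37 and −1.34 to −0.19. For PECAM1+ against PECAM1−, 2 genes were called by limma, and 7 with quantile normalization, 6 with median centring, 5 with the filter on dim genes, 5 with robust eBayes, 1 with array weights and 1 with all probe sets. Leaving out 1 array gave 1 to 4089 genes and 0 to 2 markers. The 4089 genes and 2 markers (Lyve1 and Plvap) came without parental cells, where clone A1 is the lone PECAM1− sample. Leaving out 1 array gave differences of −0.011 to 0.031 for Emcn, −0.054 to 0.040 for Mmrn1, −0.059 to 0.18 for Nos3, −0.93 to 0.43 for Nr2f2 and −0.30 to 0.13 for Prox1. Emcn was at −0.0038 with quantile normalization and −0.016 with median centring. The cause of these changes was not tested, except that the scalings moved the median of all genes by 0.051 or less. Of the 10 markers, the filter on dim genes kept Pdpn, Nr2f2 and Vwf. No paired analysis was possible because the labels give the groups no shared replicate numbers.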
